A study of Mus musculus with 8 samples.

Results

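Alternative splicing in the heart is set by RNA-binding proteins, and 10 of their genes were followed here across all libraries of the study. They were Rbm20 and Rbm24, the Fox family members Rbfox1 and Rbfox2, the muscleblind genes Mbnl1 and Mbnl2, the CELF genes Celf1 and Celf2, and the SR protein genes Srsf1 and Srsf5. Members were found by an exact match of the gene symbol. All 10 were among the 33249 genes of the deposited gene table, and they accounted for 109 of the 94947 deposited transcripts. All 10 passed the filter of a mean FPKM of at least 0.5.

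Poly(A) RNA of mouse myocardium was sequenced in 8 libraries, 2 in each of 4 groups. All mice carried the floxed Piezo1 allele. The groups labelled CKO-Sham and CKO-MI also carried Myh6-MerCreMer, a tamoxifen-inducible Cre driven by the cardiomyocyte promoter of Myh6, while fl/fl-Sham and fl/fl-MI were littermates lacking Cre. Per the study's methods, tamoxifen was given on 5 days from 4 weeks of age, and MI was induced at 8 weeks by tying off the left anterior descending artery for good. MI hearts were labelled day 42. Sham hearts were operated without ligation, and their labels give no day, so a difference in time after surgery cannot be told apart from MI. A Myh6-driven Cre acts in cardiomyocytes, so the other cells of the tissue keep Piezo1. The labels do not say how many animals made up a library, and p-values measure only the spread between these libraries. In bulk tissue, fewer cells of a type and less RNA per cell cannot be told apart.

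A regulated exon can be included in or skipped from the mature mRNA, and the choice depends on which proteins bind near it. RBM20 is known for repressing titin exons and for its part in dilated cardiomyopathy. RBM24 promotes inclusion of muscle exons, and FOX proteins act through UGCAUG elements. Muscleblind and CELF proteins often act in opposite directions, and the shift from CELF to muscleblind activity marks postnatal heart maturation. SR proteins generally favor exon inclusion, and the CLK kinases phosphorylate them.

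Several of these genes have alternative exons of their own, which are conserved between paralogs. A muscleblind pair and the FOX pairs are shown from GENCODE M21 transcripts on GRCm38, 5′ to 3′, because the same exon can be followed in both members of a pair. Capitals mark the bases that differ between the paralogs. The 54-base coding exon of Mbnl1 (chr3:60614683-60614736, plus strand) and that of Mbnl2 (chr14:120395712-120395765, plus strand) were identical at 46 of 54 bases. In muscleblind proteins this exon is known to affect nuclear localization, and its inclusion is typical of immature heart.
Mbnl1, 54 bases: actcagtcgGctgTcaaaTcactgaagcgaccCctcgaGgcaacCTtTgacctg
Mbnl2, 54 bases: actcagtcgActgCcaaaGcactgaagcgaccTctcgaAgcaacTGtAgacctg

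Rbfox1 and Rbfox2 share a pair of mutually exclusive exons, one of 40 bases that is typical of brain and one of 43 bases that is typical of muscle. In Rbfox1 they lie at chr16:7363865-7363904 and chr16:7369801-7369843 on the plus strand, and in Rbfox2 at chr15:77094451-77094490 and chr15:77091812-77091854 on the minus strand. The 40-base exons were identical at 34 bases (85.0%) and the 43-base exons at 27 bases (62.8%).
Rbfox1, 40 bases: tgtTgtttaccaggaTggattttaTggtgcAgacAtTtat
Rbfox2, 40 bases: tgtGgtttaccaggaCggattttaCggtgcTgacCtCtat
Rbfox1, 43 bases: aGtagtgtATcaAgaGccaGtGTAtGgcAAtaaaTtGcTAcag
Rbfox2, 43 bases: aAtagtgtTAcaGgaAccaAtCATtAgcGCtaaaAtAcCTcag

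Deposited counts summed to between 73821747 and 88117573 per library. Mitochondrially encoded genes took 43.1% to 46.4% of them in sham and 19.9% to 24.2% in MI libraries. Cardiomyocyte markers were present in every library, with 7 of 7 tested and 2 higher and 1 lower after MI. All 6 fibroblast markers were higher after MI (summed CPM, normalized to library size, 1329 to 1467 in sham and 2083 to 6120 in MI), and all 5 endothelial markers were lower (1498 to 1611 and 457.4 to 655.8). The library fl/fl-MI 2 stood apart: it held 3834 CPM of the atrial gene Bmp10 against 10.3 to 18.8 in the other 7. CKO-Sham 2 was also higher, to a far smaller extent, for other atrial genes. For Myl4 it held 48 CPM, against 2810 in fl/fl-MI 2 and 10.2 to 13.7 in the remaining libraries. The part of these differences in the values of the regulators was not tested. Piezo1 was measured at 72.2 to 88.3 CPM in sham and 53.5 to 64.8 CPM in MI libraries, and it did not separate the genotypes (edgeR adjusted p = 0.972 after MI and 1 in sham). It therefore gave no check of the genotype labels in whole tissue.

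The first question was how much RNA of each regulator gene the myocardium contained. FPKM, which scales fragments to length and library size, allows levels to be set side by side between genes. In the 4 sham libraries Srsf5 had the highest mean gene FPKM, 65.4, with a range of 57.3 to 78.7. Rbm24 (21.7), Srsf1 (20.3) and Rbm20 (18.3) formed a group below it, in which Rbm24 overlapped Srsf1 and Srsf1 overlapped Rbm20. Next came Mbnl2 (7.74) and Rbfox2 (7.05), which overlapped, then Mbnl1 (5.40) and Celf1 (5.10), which also overlapped. Rbfox1, at 1.75, and Celf2, at 1.14, were lowest and did not overlap each other.

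The order depended on how length enters. The gene FPKM was below the sum of the FPKM values of the gene's transcripts in every library. On that sum, Mbnl2 had 30.6 in sham and stood next to Srsf1 (28.9), Rbm20 (26.7) and Rbm24 (25.9). Mbnl1 had 20.2, Rbfox2 8.99, Celf1 7.40, Celf2 4.31 and Rbfox1 2.93, while Srsf5 remained highest at 115.5. The muscleblind genes were thus placed lower by the gene value than by the transcript sum, and so was Celf2, which stood above Rbfox1 on the sum. These sums are not levels of coding RNA alone. In sham libraries the partial Rbm20-201, annotated as a target of nonsense-mediated decay, held 20.3 to 26.1 FPKM. The non-coding Mbnl2-205 held 13.9 to 26.7, and the intron-retaining Srsf5-212 held 55.4 to 69.7.

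MI was then compared with sham over both genotypes by edgeR's quasi-likelihood test on TMM-scaled counts, with Benjamini-Hochberg adjustment over 14028 genes and a threshold of 0.05. Celf2, Celf1, Rbfox2 and Mbnl2 rose, Srsf5 fell, and Rbm20, Rbm24, Rbfox1, Mbnl1 and Srsf1 did not pass. That is 5 of 10 members, against 40.4% of all genes tested (22% higher and 18.3% lower). The median log2 fold change of the 10 was 0.38, and that of all genes tested was 0.03. The plot of levels by library shows each value.

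**Figure D1:**
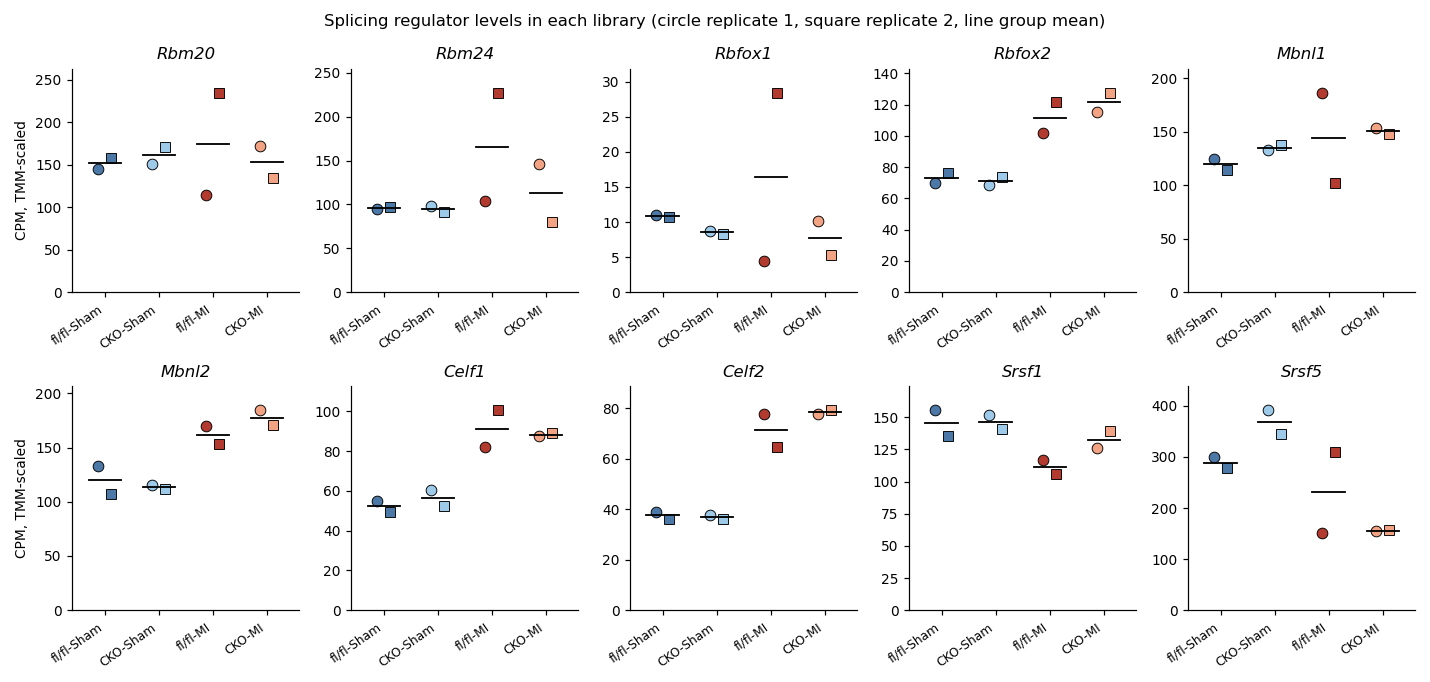
TMM-scaled CPM (y axis, from 0) of the 10 genes in the 8 libraries, grouped on the x axis; circles are replicate 1, squares replicate 2 and lines group means. All 4 MI libraries lie above all 4 sham libraries for Rbfox2, Mbnl2, Celf1 and Celf2, and fl/fl-MI 2 is far from fl/fl-MI 1 for Rbm20, Rbm24, Rbfox1, Mbnl1 and Srsf5.

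The CELF genes encode proteins that bind GU-rich RNA and act in splicing, and CELF1 also acts in mRNA decay. Celf2 was measured at 38.8 and 36.3 CPM in fl/fl-Sham, 37.7 and 36.2 in CKO-Sham, 77.7 and 64.7 in fl/fl-MI, and 77.9 and 79.2 in CKO-MI. The sham libraries lay within a narrow band and every MI library was well above it. Celf2 rose 2.01-fold (log2 fold change 1.01 ± 0.10 SE, edgeR adjusted p = 0.000833). Celf1 was measured at 55.0 and 49.3 CPM in fl/fl-Sham, 60.6 and 52.3 in CKO-Sham, 82.2 and 100.5 in fl/fl-MI, and 87.6 and 89.0 in CKO-MI. Its groups did not overlap either, and it rose 1.66-fold (log2 0.73 ± 0.11 SE, edgeR adjusted p = 0.00325).

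Rbfox2, the FOX member found in many tissues, was measured at 69.8 and 76.5 CPM in fl/fl-Sham, 68.7 and 74.0 in CKO-Sham, 102.0 and 121.4 in fl/fl-MI, and 115.1 and 127.7 in CKO-MI. Every MI library was above every sham library, and the gene rose 1.61-fold (log2 0.69 ± 0.11 SE, edgeR adjusted p = 0.00327). Rbfox1, the member restricted to muscle and brain, behaved otherwise. It was measured at 10.9 and 10.8 CPM in fl/fl-Sham, 8.70 and 8.34 in CKO-Sham, 4.45 and 28.4 in fl/fl-MI, and 10.2 and 5.35 in CKO-MI. The MI libraries lay on both sides of the sham libraries, with fl/fl-MI 2 above all others (log2 0.23 ± 0.52 SE, edgeR adjusted p = 0.743). Without fl/fl-MI 2 the log2 fold change was -0.71, and without CKO-MI 1 it was -0.06, so the direction turned when either of these libraries was left out.

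Mbnl2, which encodes a muscleblind protein that binds YGCY elements, was measured at 133.0 and 106.9 CPM in fl/fl-Sham, 115.9 and 112.2 in CKO-Sham, 170.2 and 153.4 in fl/fl-MI, and 184.3 and 170.9 in CKO-MI. The groups did not overlap, and the gene rose 1.45-fold (log2 0.54 ± 0.11 SE, edgeR adjusted p = 0.00957). Mbnl1, its paralog, was measured at 124.8 and 114.1 CPM in fl/fl-Sham, 133.1 and 137.2 in CKO-Sham, 186.5 and 102.3 in fl/fl-MI, and 153.6 and 147.9 in CKO-MI. Only fl/fl-MI 2 among the MI libraries was below the sham libraries, and Mbnl1 did not pass (log2 0.22 ± 0.19 SE, edgeR adjusted p = 0.385). Without fl/fl-MI 2 it passed at a log2 fold change of 0.40 (edgeR adjusted p = 0.00879), and without fl/fl-MI 1 the value was -0.05.

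Non-overlapping groups with MI above sham were thus found for 4 of the 10 members, against 20.9% of all genes tested, and with MI below sham for none, against 19.5%.

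Rbm20 was measured at 145.4 and 158.4 CPM in fl/fl-Sham, 151.3 and 170.6 in CKO-Sham, 114.8 and 235.1 in fl/fl-MI, and 172.3 and 134.9 in CKO-MI. The MI libraries spread around the sham libraries, with fl/fl-MI 2 highest and fl/fl-MI 1 lowest (log2 0.07 ± 0.23 SE, edgeR adjusted p = 0.83). Rbm24 was measured at 94.7 and 97.2 CPM in fl/fl-Sham, 98.1 and 91.8 in CKO-Sham, 104.1 and 227.4 in fl/fl-MI, and 146.1 and 80.0 in CKO-MI. Again fl/fl-MI 2 was highest, and the gene did not pass (log2 0.52 ± 0.28 SE, edgeR adjusted p = 0.177). Without fl/fl-MI 1 Rbm24 passed at a log2 fold change of 0.73 (edgeR adjusted p = 0.0208), and without fl/fl-MI 2 the value was 0.18.

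The SR protein genes were the members with lower values after MI. Srsf5 was measured at 299.4 and 277.4 CPM in fl/fl-Sham, 391.2 and 345.9 in CKO-Sham, 151.7 and 310.4 in fl/fl-MI, and 154.4 and 156.3 in CKO-MI. Of the MI libraries, 3 lay near 150 CPM and fl/fl-MI 2 lay among the sham libraries. Srsf5 fell by 0.78 on the log2 scale (± 0.22 SE, edgeR adjusted p = 0.0271), or by 1.09 without fl/fl-MI 2 (edgeR adjusted p = 0.000255). The call was lost without either CKO-MI library or any sham library (edgeR adjusted p = 0.0639 to 0.0907), where the log2 fold change stayed between -0.83 and -0.74. Srsf1, whose product binds purine-rich exonic enhancers, was measured at 155.3 and 135.8 CPM in fl/fl-Sham, 151.5 and 140.6 in CKO-Sham, 117.0 and 105.8 in fl/fl-MI, and 125.9 and 139.0 in CKO-MI. Its groups overlapped through CKO-MI 2 (log2 -0.26 ± 0.10 SE, edgeR adjusted p = 0.0796), and without fl/fl-MI 1 it passed at -0.32 (edgeR adjusted p = 0.0363).

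These fold changes are relative to the bulk of the other genes. On the deposited FPKM, which are scaled to all fragments including mitochondrial ones, the median of all genes tested moved by 0.41 on the log2(FPKM + 1) scale, and on TPM by 0.92. Relative to zero, Rbm20, Rbm24 and Mbnl1 were called higher on log2(FPKM + 1), at 0.56, 0.97 and 0.66, and 7 of 10 members were then called in all, against 56.1% of all genes tested on that scale. On that scale Srsf1 turned to 0.29 and Srsf5 was at -0.26, and on TPM Srsf5 turned to 0.31 and Srsf1 was called higher at 0.85. Celf1, Celf2, Rbfox2 and Mbnl2 rose on every scale tried, and their FPKM changes (1.14, 1.04, 1.14 and 1.01) also lay above the shift of the median.

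Fold change moved with transcript length. Genes with a mean transcript length under 1 kb had a median log2 fold change of -0.38 after MI, and those of 6 to 8 kb had 0.29. Celf1 and Celf2, in the bin from 5 to 6 kb, and Rbfox2, in the bin from 6 to 8 kb, stood above the medians of their bins, which were 0.22 and 0.29. With library- and length-specific offsets the log2 fold changes were 0.80 for Celf2, 0.52 for Celf1, 0.48 for Rbfox2 and 0.43 for Mbnl2, and these passed (edgeR adjusted p = 0.00148, 0.0168, 0.0141 and 0.0215). Srsf5 also passed, at -0.77, and Srsf1 did so at -0.39 (edgeR adjusted p = 0.0295 and 0.0215).

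**Figure D2:**
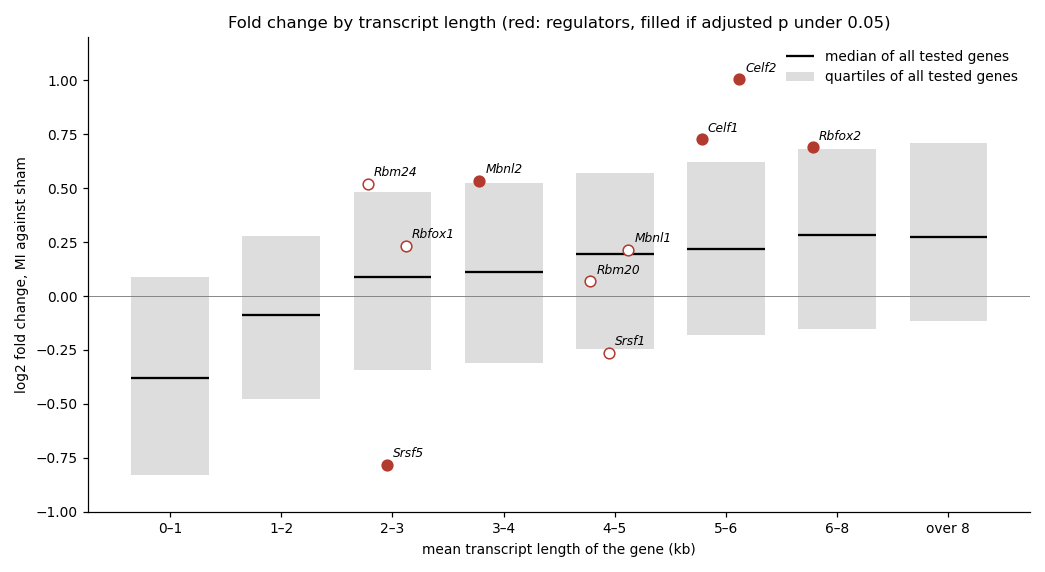
Log2 fold change for MI against sham over both genotypes (y axis) by mean transcript length in kilobases (x axis); grey boxes span the quartiles and black lines the medians of all genes tested, and red points are the 10 regulators, filled where the adjusted p was under 0.05. The medians run from -0.38 in the shortest bin to 0.29 at 6 to 8 kb, Celf2 lies at 1.01 and Srsf5 at -0.78.

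Within the fl/fl genotype, Celf2 (log2 0.92 ± 0.14 SE), Celf1 (0.81 ± 0.16) and Rbfox2 (0.61 ± 0.15) rose after MI, which is 3 of 10 members against 18.5% of all genes tested (edgeR adjusted p = 0.00859, 0.0173 and 0.0336). Mbnl2 had 0.43 ± 0.16 and did not pass (edgeR adjusted p = 0.0964). Within the CKO genotype, Celf2 (1.09 ± 0.14), Rbfox2 (0.77 ± 0.15), Celf1 (0.65 ± 0.16) and Mbnl2 (0.64 ± 0.16) rose and Srsf5 fell by 1.25 (± 0.31), 5 of 10 against 24.7%. Here edgeR adjusted p-values lay between 0.00524 and 0.0291. Both contrasts rest on 2 libraries a side. Without either fl/fl-Sham library no member passed within fl/fl, where 0.898% and 0.848% of all genes tested still did, and without CKO-Sham 1 none passed within CKO, where 0.178% did.

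**Figure D3:**
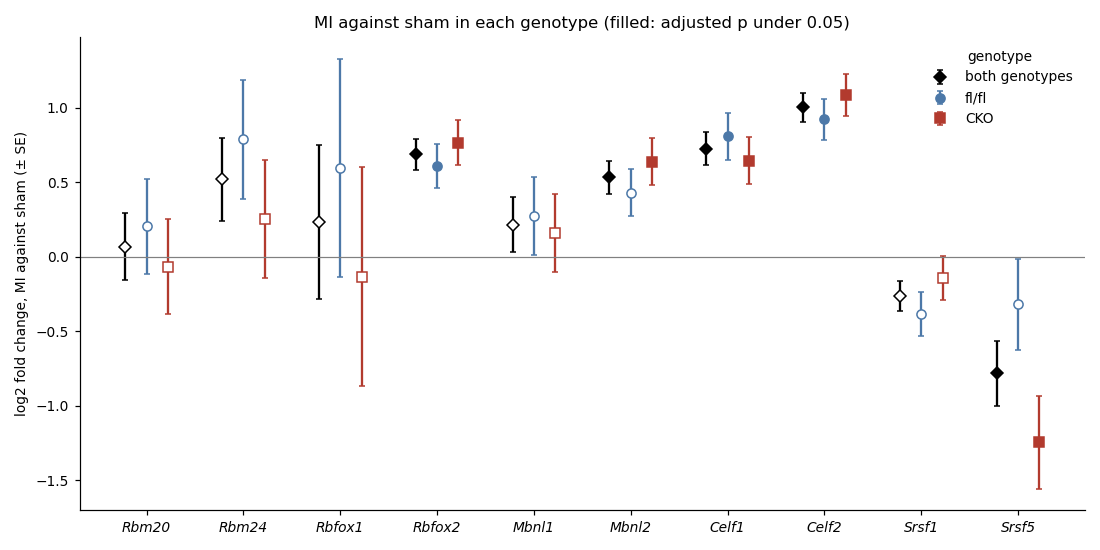
Log2 fold change with its standard error for MI against sham (y axis) of each gene (x axis), over both genotypes (black diamonds), within fl/fl (blue circles) and within CKO (red squares); filled symbols had an adjusted p under 0.05. Celf2 is near 1 in all 3 contrasts, and Srsf5 is -0.32 within fl/fl and -1.25 within CKO with wide errors.

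The genotypes were compared after MI and after sham surgery. CKO hearts differed from fl/fl hearts by the Cre transgene as well as by the deletion of Piezo1, and the effects of these cannot be told apart here. The deletion itself was not visible in the Piezo1 RNA level of whole tissue, as given above. The study checked it at the protein level, by Western blot of isolated adult cardiomyocytes. No member passed in either comparison or for the interaction of genotype and MI. The background was 0% after MI, 0.00713% in sham and 0% for the interaction. At an unadjusted p under 0.05, edgeR also gave 0 members in each of the 3 contrasts (background 8.31%, 3.89% and 8.49%), and DESeq2 and limma on log2(FPKM + 1) gave 0 after adjustment. Among all genes after MI, edgeR called 0, with 1166 at an unadjusted p under 0.05, DESeq2 called 207 and limma 0. The interaction called 0 genes in edgeR, with 1191 unadjusted, and 131 in DESeq2 and 0 in limma.

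After MI, log2 differences of CKO from fl/fl lay between -0.05 and 0.14 for Celf1, Celf2, Mbnl1, Mbnl2 and Rbfox2, with standard errors of 0.14 to 0.26. Larger differences with larger errors were seen for Rbfox1 (-1.08 ± 0.74 SE), Srsf5 (-0.57 ± 0.31) and Rbm24 (-0.55 ± 0.40). Without fl/fl-MI 2 they were 0.80, 0.03 and 0.12. Without fl/fl-MI 1, when the comparison rested on fl/fl-MI 2, Rbfox1 (-1.85), Srsf5 (-0.98) and Mbnl1 (0.58) passed (edgeR adjusted p = 0.0169, 0.0113 and 0.0461), and so did Srsf5 in the interaction (-1.34, edgeR adjusted p = 0.0166). Of all genes tested, 11.9% and 5.35% then passed in these contrasts. In sham hearts the differences lay between -0.35 and 0.35, the largest again being Rbfox1 and Srsf5.

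Across the 8 libraries, the genes with profiles most like a member were found by the root mean square difference of mean-centered log2 CPM. Mbnl2 had the closest neighbors, G3bp1 (0.0364), Vps50 (0.0448) and Strap (0.0493), against its own spread of 0.289 about its mean. Celf2 was followed by Rock2 (0.0681), Hsp90b1 (0.0687) and Nek7 (0.0804), and Celf1 by Csnk1a1 (0.066), Rab18 (0.0769) and Rraga (0.0778). Rbfox2 was nearest to Nek9, Uhrf1bp1 and Ecd (0.0561 to 0.0618), and Srsf1 to Thoc2, Hnrnpu and Ppil4 (0.057 to 0.0657). Rbfox1 had 28.4 CPM in fl/fl-MI 2, the library high in atrial genes, against 4.45 to 10.9 in the others. The part of that library in its distances was not tested. Nearest to Rbfox1, whose own spread was 0.75, were Doc2g (0.194), the pacemaker channel gene Hcn4 (0.199) and the connexin gene Gja3 (0.213). For Mbnl1 they were Phlpp2, Vcpip1 and Styx (0.0516 to 0.0797), for Rbm20 Ralgapa2, Spata13 and Ccl2 (0.0736 to 0.112), for Rbm24 Krt222, Slc37a1 and Tob2 (0.105 to 0.126), and for Srsf5 Unc13b, Vstm4 and Grasp (0.115 to 0.13). No neighbor was tested.

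Transcript shares, the FPKM of a transcript as a percentage of the sum over its gene, were examined next. Usage was tested with edgeR's diffSpliceDGE and Simes p-values per gene in 5543 genes. Of 9 members with at least 2 testable transcripts none passed for MI against sham over both genotypes, where 1.79% of genes passed, and 4 had an unadjusted p under 0.05 (background 9.4%). The smallest were Mbnl2 (edgeR adjusted p = 0.0795), Rbm20 (0.206), Mbnl1 (0.35) and Srsf5 (0.485). The gene-level F test passed Rbm20, Mbnl2 and Srsf5, against 14% of genes, and limma's diffSplice passed Rbm20, Mbnl1 and Mbnl2, against 14.6%. For CKO-MI against fl/fl-MI none of 9 passed (background 0.253%), and none had an unadjusted p under 0.05 (background 2.07%). None passed for the interaction (background 0.848%), where 1 member, Mbnl2, had an unadjusted p under 0.05 (background 5.07%). Rbm24 was not tested because Rbm24-201 alone made up 85.9% to 95.6% of its FPKM.

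Rbm20 had 3 transcripts. Rbm20-203 spans the whole gene with 14 exons and codes for protein, while Rbm20-201 has 7 exons, starts far into the gene and is annotated as a target of nonsense-mediated decay. The share of Rbm20-203 was 14.9% and 15.1% in fl/fl-Sham, 6.79% and 8.24% in CKO-Sham, 43.02% and 43.63% in fl/fl-MI, and 38.1% and 40.1% in CKO-MI. No sham library reached the MI range, and the share went from 11.2% ± 4.34 (SD, n = 4) to 41.2% ± 2.60 (SD, n = 4). Its FPKM was 1.77 to 4.21 in sham and 13.8 to 24.4 in MI, while that of Rbm20-201 was 20.3 to 26.1 and 16.9 to 28.9. On the FPKM scale the full-length transcript was thus higher after MI and the partial one overlapped. The summed transcript FPKM of the gene averaged 26.7 in sham and 41.8 in MI. The gene level that did not pass was on TMM-scaled counts, so the FPKM of its transcripts cannot be set directly against it.

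Mbnl2 showed the same kind of difference. Mbnl2-205, a non-coding transcript of 2 exons that starts far into the gene, held 48.7% and 80.4% in fl/fl-Sham, 80.9% and 76.6% in CKO-Sham, 8.69% and 12.4% in fl/fl-MI, and 9.49% and 7.68% in CKO-MI. Its groups did not overlap. Mbnl2-201, the long coding transcript, held 37.9% and 0.68% in fl/fl-Sham, 0.17% and 0% in CKO-Sham, 75.6% and 68.8% in fl/fl-MI, and 7.90% and 82.0% in CKO-MI. In CKO-MI 1 its place was taken by Mbnl2-202, which held 65.2% there and at most 0.64% elsewhere. Mbnl2-202 contains a 36-base exon that Mbnl2-201 lacks, and its estimated inclusion was 66.6% in that library and at most 0.65% in the other 7.

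Transcripts that start past the midpoint of their gene were lower after MI throughout the data. Over 5968 genes that list such a transcript, they held a mean of 14.7% to 15.1% in sham and 11.7% to 12.1% in MI libraries, and 72.3% of genes had a lower mean after MI. In Rbm20 they held 84.9% to 93.2% in sham and 56.4% to 61.9% in MI, and in Mbnl2 48.7% to 80.9% and 7.68% to 12.4%. A drop of over 20 percentage points was found in 3.84% of genes. The part of this shift in the shares of Rbm20 and Mbnl2 was not tested.

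**Figure D4:**
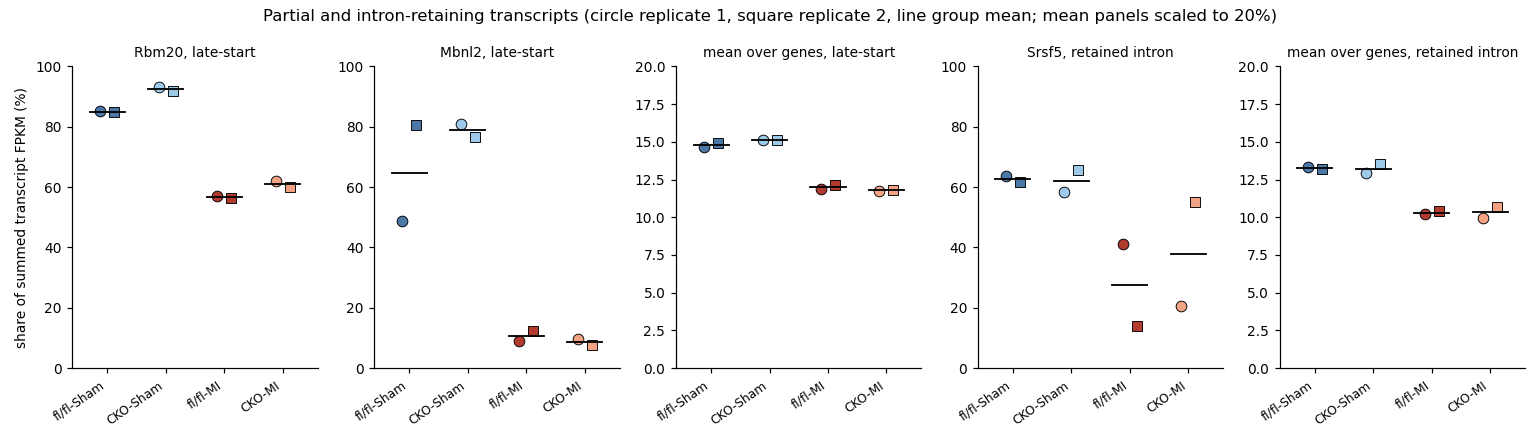
Share of summed transcript FPKM in percent (y axis) by group (x axis) for transcripts that start past the midpoint of the gene (late-start) in Rbm20, Mbnl2 and on average over 5968 genes, and for transcripts annotated as retaining an intron in Srsf5 and on average over 7151 genes; circles are replicate 1, squares replicate 2, lines group means, and the panels of averages are scaled to 20%. Late-start shares are lower in every MI library than in any sham library in all 3 panels, while Srsf5 varies from 13.9% to 55.0% within MI.

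SR protein genes are known to make transcripts with retained introns or poison exons. Srsf5-212, the main intron-retaining form, held 54.7% and 54.5% in fl/fl-Sham, 49.3% and 56.3% in CKO-Sham, 35.9% and 11.8% in fl/fl-MI, and 16.7% and 45.4% in CKO-MI. All MI libraries were below all sham libraries, with a wide spread (53.7% ± 3.04 and 27.4% ± 15.8, SD, n = 4 each). The coding Srsf5-201 held 12.5%, 10.5%, 16.9% and 8.65% in the sham libraries and 16.6%, 49.8%, 36.2% and 22.2% in the MI libraries, in the order fl/fl 1, fl/fl 2, CKO 1 and CKO 2. These values overlapped through fl/fl-MI 1. Intron-retaining transcripts as a class held a mean of 12.95% to 13.50% in sham and 9.97% to 10.7% in MI libraries over 7151 genes, and 70.2% of genes were lower after MI. In Srsf1, retained-intron transcripts held 8.88% to 13.2% in sham and 9.08% to 19.8% in MI, which overlapped.

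Other shares varied between libraries of a group. Rbfox2-204 held 72.5% to 88.6% in 7 libraries and 0.09% in fl/fl-Sham 1, where Rbfox2-203 held 93.2%. Celf2-202 held 4.49% to 87.0% and Celf2-201 0% to 58.7%. Of the Celf1 transcripts, Celf1-203 held 2.22% to 10.3% in sham and 20.3% to 34.4% in MI, without overlap, while Celf1-206, Celf1-201 and Celf1-202 overlapped. Srsf1-205 held 43.6% to 67.7% and Srsf1-201 20.1% to 33.4% with no separation of the groups, and so did Srsf5-205 (5.83% to 13.9%) and Srsf5-202 (6.33% to 21.1%).

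Shares of whole transcripts were then summed by exon. Inclusion is the FPKM of transcripts with the exon over that of transcripts with or spanning it, as estimated by the authors' quantification and not counted from junction reads. Of 3138 cassette exons in 1876 genes, 12 lay in 6 members, and log odds of inclusion were compared with limma. For MI against sham 2 of the 12 passed, against 1.37% of all exons, and 6 of the 12 had inclusion values that did not overlap between MI and sham, against 16%. Exons of the same gene can rest on the same transcripts, so these counts are not of independent exons. Those that passed were the 46-base exon of Rbm20 and the 95-base exon of Mbnl2. In Rbm20 it went from 88.7% ± 4.37 in sham to 56.6% ± 2.38 in MI (SD, n = 4 each, limma adjusted p = 0.0313), and in Mbnl2 from 26.5% ± 15.3 to 90.2% ± 2.06 (limma adjusted p = 0.0285). In both, 1 side of the ratio was a late-start transcript alone, Rbm20-201 as the including and Mbnl2-205 as the skipping form. When libraries were left out in turn, the Rbm20 exon passed in no case, and the Mbnl2 exon passed only without fl/fl-Sham 1.

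**Figure D5:**
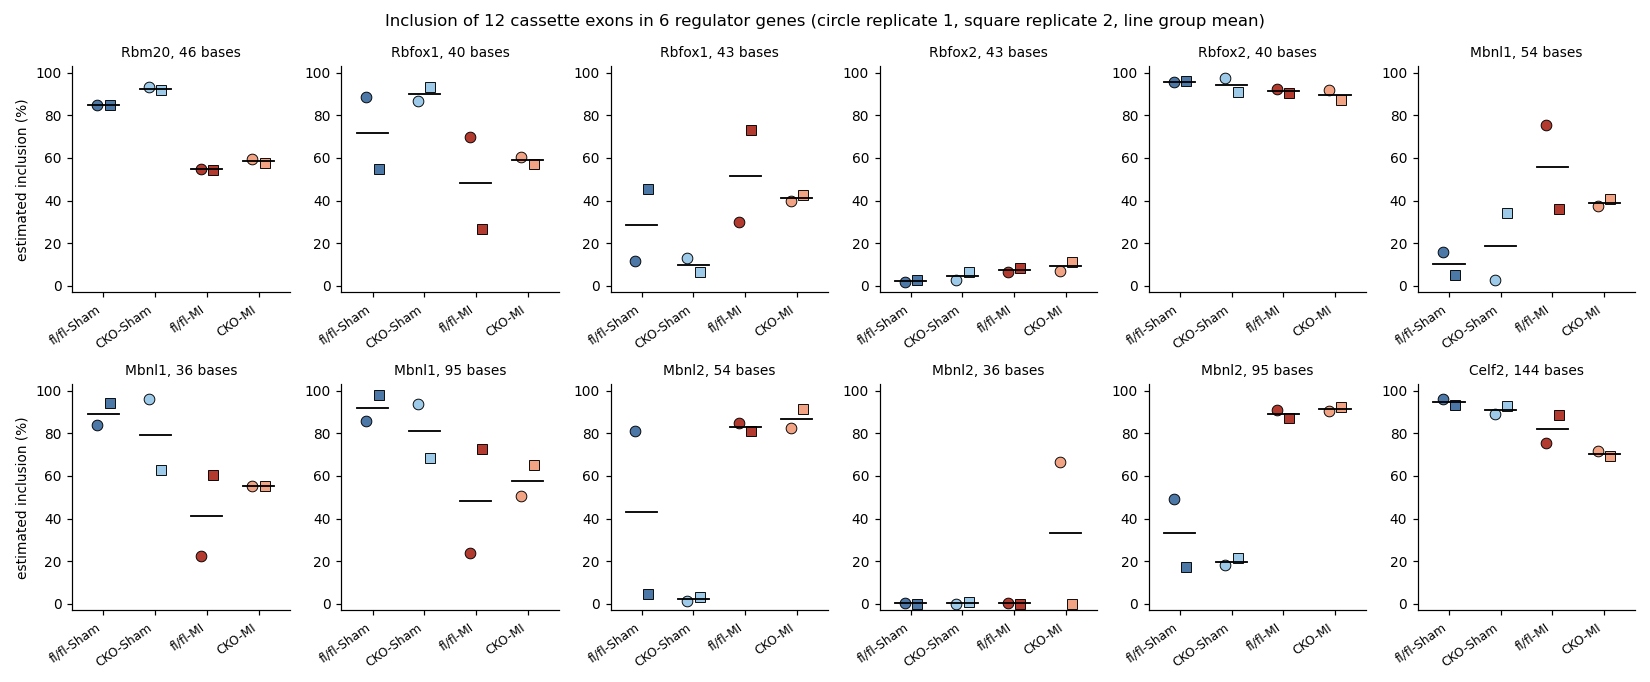
Estimated inclusion in percent (y axis) of 12 cassette exons of 6 regulator genes by group (x axis), with circles for replicate 1, squares for replicate 2 and lines for group means. Inclusion of the 54-base exons of Mbnl1 is 2.92% to 34.2% in sham and 36.3% to 75.5% in MI libraries, and in Mbnl2 fl/fl-Sham 1 lies with the MI libraries.

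The paired 54-base exons printed above both had higher mean inclusion after MI. In Mbnl1 inclusion was 15.7% and 5.31% in fl/fl-Sham, 2.92% and 34.2% in CKO-Sham, 75.5% and 36.3% in fl/fl-MI, and 37.2% and 40.8% in CKO-MI. The groups did not overlap, although CKO-Sham 2 came close to fl/fl-MI 2 (log2 odds change 2.92 ± 1.04 SE, limma adjusted p = 0.199). In Mbnl2 inclusion was 81.3% and 4.55% in fl/fl-Sham, 1.09% and 3.08% in CKO-Sham, 84.6% and 81.1% in fl/fl-MI, and 82.6% and 91.2% in CKO-MI. Mbnl2-205 starts downstream of this exon and does not enter the ratio. It held 76.6% to 80.9% of the gene's FPKM in fl/fl-Sham 2 and CKO-Sham. There the including Mbnl2-201 and Mbnl2-202 had at most 0.21 FPKM each, and the skipping Mbnl2-204 had 4.86 to 5.86. In this ratio fl/fl-Sham 1 stood with the MI libraries and the other sham libraries were below 5% (log2 odds change 5.38 ± 1.29 SE, limma adjusted p = 0.0897). Neither passed, and the Mbnl2 exon did so without fl/fl-Sham 1 (limma adjusted p = 0.032).

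In Mbnl1 the 36-base exon (chr3:60621423-60621458) and the 95-base exon downstream had lower mean inclusion after MI. The shorter was included at 62.6% to 95.9% in sham and 22.2% to 60.2% in MI, without overlap (limma adjusted p = 0.173), and the longer at 68.5% to 98.0% and 24.0% to 72.5%, with overlap (limma adjusted p = 0.193). The values follow the transcript Mbnl1-201, which contains both of them and held 42.4% to 81.6% in sham and 10.4% to 28.8% in MI. Mbnl1-218, which lacks both and contains the 54-base exon, held 0% to 28.2% and 22.3% to 67.2%.

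For the mutually exclusive Fox exons, the muscle-type 43-base exon of Rbfox2 was included at 1.80% to 6.41% in sham and 6.59% to 11.4% in MI, a small but non-overlapping difference (log2 odds change 1.10 ± 0.43 SE, limma adjusted p = 0.227). The 40-base exon was the main form, at 90.9% to 97.4% in sham and 87.3% to 92.4% in MI. In Rbfox1 the 43-base exon was included at 11.5% and 45.3% in fl/fl-Sham, 13.1% and 6.71% in CKO-Sham, 30.0% and 73.3% in fl/fl-MI, and 39.7% and 42.6% in CKO-MI. The groups overlapped through fl/fl-Sham 2, and the difference did not pass (limma adjusted p = 0.257). The 144-base exon of Celf2 was included at 89.1% to 95.9% in sham and 69.1% to 88.8% in MI without overlap (log2 odds change -1.62 ± 0.44 SE, limma adjusted p = 0.118).

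No member exon passed for CKO-MI against fl/fl-MI, where 0.0956% of all exons did, for CKO-Sham against fl/fl-Sham, where 0.351% did, or for the interaction, where 0.0956% did.

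The other genes of the splicing machinery were examined as fixed lists on the same TMM scale, on which 22% of all genes tested rose and 18.3% fell, with a median of 0.03. Of the other SR proteins and their kinases 17 were tested, and none rose and 11 fell after MI, with a median log2 fold change of -0.53. Clk1 (-1.80 ± 0.18 SE) and Clk4 (-1.31 ± 0.12), which phosphorylate SR proteins, and Tra2a (-0.85 ± 0.09), an SR-like activator, fell most (edgeR adjusted p = 0.00092, 0.000746 and 0.00111). With length-specific offsets 12 fell and none rose, against 18.4% and 19.1% of all genes. This direction depended on scaling: on log2(FPKM + 1), where the median gene was at 0.41, 3 were called higher and 2 lower (50.1% and 5.97% of all genes), and on TPM 10 higher and 1 lower (76.7% and 1.98%).

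Of 34 tissue-restricted and other regulators listed, 33 were found by symbol and 21 were tested. Of these, 2 rose and 10 fell, with a median of -0.30. Rbm5 (-1.21 ± 0.17 SE), Tia1 (-1.16 ± 0.12) and Nova2 (-1.09 ± 0.17) fell most, and Elavl1 (0.43 ± 0.09) and Nono (0.41 ± 0.10) rose. On log2(FPKM + 1) 8 were higher and 2 lower, and on TPM 17 higher and none lower. Of 21 hnRNP and PTB genes, 2 rose (Hnrnpc at 0.38 ± 0.11 and Hnrnpab at 0.36 ± 0.12), 4 fell, led by Ptbp2 (-0.57 ± 0.11), Hnrnph1 (-0.55 ± 0.12) and Hnrnph3 (-0.47 ± 0.09), and 15 did not pass. Of 12 core spliceosome genes, 3 rose, among them Prpf8 (0.44 ± 0.14) and Sf3a1 (0.39 ± 0.09), and Snrnp70 (-0.62 ± 0.13) and Ddx46 (-0.41 ± 0.09) fell. With length offsets Prpf8 (0.19) and Sf3a1 (0.24) did not pass (edgeR adjusted p = 0.342 and 0.0986). Then 1 core spliceosome gene rose and 3 fell, and 2 hnRNP and PTB genes rose and 6 fell (19.1% and 18.4% of all genes). On log2(FPKM + 1) these last 2 lists had 13 and 8 genes higher and none lower.

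Known muscle targets of these proteins were looked at for both level and splicing. Of 23 genes 13 rose after MI and none fell, against 22% and 18.3% of all genes, with a median log2 fold change of 0.58. With length offsets 11 rose and 1 fell (19.1% and 18.4% of all genes), and without fl/fl-MI 2 13 rose and 2 fell (26.9% and 23.8%). The largest were Rtn4 (1.56 ± 0.32 SE), Enah (1.53 ± 0.25) and Fhod3 (1.03 ± 0.16). Of 20 tested for transcript usage only Camk2d, a kinase gene spliced by RBM20, passed (diffSpliceDGE adjusted p = 0.0013), against 1.79% of all genes. Its Camk2d-206 held 19.6% and 35.5% in fl/fl-Sham, 0.04% and 0.24% in CKO-Sham, 22.6% and 25.4% in fl/fl-MI, and 24.3% and 45.3% in CKO-MI, so that CKO-Sham alone was low. Of 63 target exons in 18 genes 1 passed, against 1.37% of all exons. It was the 2361-base exon of Rtn4 (28.1% in sham and 91.8% in MI, limma adjusted p = 0.0369), and inclusion in 17 of the 63 did not overlap between MI and sham, against 16% of all exons. Among the 17 were exons of the same gene that moved together, as in Tnnt2 and Mef2d, so they are not independent.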

How the data were processed

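Each library was made from poly(A) RNA with a strand-marking kit and sequenced as paired-end reads. The labels name cutadapt 1.9 and FastQC for read processing. The aligner, counter and genome build are not given in the sources used here. The authors deposited a count per gene and transcript, without normalization, and FPKM values, scaled by the authors to length and library size. Low counts were most frequent at multiples of 4, so a read pair may add several units, which was tried as an alternative. Of the deposited transcripts, 99.2% were found in GENCODE M21, and all 109 member transcripts had the same span and exon number, which gave the coordinates and exons.

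Samples were grouped by their labels. Genes averaging 0.5 FPKM or more were tested with edgeR 4.0.16 (quasi-likelihood, TMM, a mean per group, all 8 libraries) in R 4.3.3. The standard error was computed as the log2 fold change over the root of its F statistic. Transcripts with a mean share of at least 10% and a mean count of at least 40 entered diffSpliceDGE. Cassette exons needed a summed FPKM of at least 1 and a mean inclusion of 5% to 95%, and log2 of (including FPKM + 0.1) over (skipping FPKM + 0.1) was tested with limma 3.58.1. DESeq2 1.42.0 was an alternative. The scripts were tested on simulated data.

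Members and gene lists were chosen with earlier results of these data known. The length offsets, the exon comparison and the late-start and retained-intron classes were chosen after seeing the data. Named genes were the members, the 3 closest to each, the 3 that moved most in each direction per list among those passing, and targets passing the usage test, except where a value is not reported here. Targets were also described by level and by exon, after their values were seen. Calls in transcripts and exons depend on the authors' division of shared reads among isoforms.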

Additional observations from a re-analysis of the deposited data

How the results depend on the processing

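For MI against sham over both genotypes, Celf1, Celf2, Rbfox2 and Mbnl2 were called higher under all alternatives in which they were tested, which included RLE scaling, DESeq2, other filters, FPKM, TPM, length offsets, counts divided by 4 and each library left out. Mbnl2 came closest to the threshold and met it only barely in its weakest alternative. TPM called 8 members over both genotypes, 9 within fl/fl and 8 within CKO, against 11033, 9404 and 8825 of the 14028 genes tested. Within fl/fl, log2(FPKM + 1) and log2(FPKM + 0.1) called 5, against 5255 and 5437 of all genes. Length offsets called 1 within fl/fl, against 2352, and 3 within CKO, against 2976. The 4 libraries alone called 0 within fl/fl, against 199. The FPKM and TPM scales shift the median of all genes upward, as given with the results, and moved the share of higher calls among all genes from 3091 of 5663 to 7027 of 7864 on log2(FPKM + 1) and 10755 of 11033 on TPM. Usage calls for MI were 3 by the F test, 3 by limma's diffSplice and 1 with counts divided by 4. Among all 5543 genes these called 777, 810 and 113. Leaving out each library gave 4 to 7 members over both genotypes, 0 to 6 within fl/fl, 0 to 5 within CKO, 0 to 3 for CKO-MI against fl/fl-MI, 0 to 1 for the interaction, 0 to 2 usage calls and 0 to 2 exons. A group then left with 1 library was assumed to vary like the others. Directions turned for Rbm20 with a mean FPKM of at least 5 (-0.016) and with length offsets (-0.071), for Srsf1 on log2(FPKM + 1), log2(FPKM + 0.1) and TPM (0.29, 0.30 and 0.85), and for Srsf5 on TPM (0.31). Within fl/fl, Srsf5 turned on the same 3 scales (0.15, 0.16 and 0.72). Over the libraries left out, the log2 fold change over both genotypes ranged from -0.24 to 0.26 for Rbm20, -0.71 to 0.61 for Rbfox1 and -0.051 to 0.40 for Mbnl1. It ranged from -0.93 to 0.079 for Srsf5 within fl/fl, and for CKO-MI against fl/fl-MI from -1.85 to 0.80 for Rbfox1, -0.98 to 0.034 for Srsf5 and -1.04 to 0.12 for Rbm24. The other MI-against-sham values given for members, exons and shares kept their direction where they were recomputed. The cause of these changes was not tested. Replicate numbers did not pair the libraries: deviations of same-numbered libraries correlated at -0.143 to 0.0635 between groups. With the replicate number as a block, 0 exons passed in place of 2, CKO-MI against CKO-Sham had 4 calls, the others kept their count, with 5 over both genotypes. Of all 14028 genes, 2677 passed within CKO and 5085 over both genotypes under this block. Estimates of inclusion rest on isoform quantification at 2 libraries a group, and exons of low transcripts such as those of Rbfox1 have few fragments behind them.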
